A study of Xenopus laevis with 12 samples.

Results

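The comparison described here sets the eye field (EF) of the stage 15 *Xenopus laevis* neurula directly against the posterior neural plate (PNP). Its members are the 3 arrays titled eye primordia and the 3 titled posterior neural plate, 6 of the 12 arrays of the series. The other 6 are 3 of lateral endoderm (LE), taken from the flank, and 3 of whole embryos, and they enter below only as levels and through the shared estimate of the spread. By the study's methods each EF or PNP array took a pool of small dissected pieces, and the triplicates came from embryos of different females on different days. The EF pieces held the neural plate at the site of the future eyes together with the mesendoderm beneath it, and the methods do not say that tissue under the PNP was removed. All groups share stage 15, and the labels give no genotype, treatment or sex. Poly-A RNA was hybridised to 1-colour Affymetrix arrays, and the deposited signal intensities were taken to log2, the scale of every signal and difference given here. After 120 control probe sets had been left out, 15491 of 15611 probe sets went into 1 limma fit with the 4 groups. To be called, a probe set had to differ 2-fold or more with an adjusted p below 0.05, and for a gene of a list the p alone counted. Genes, 6505 in all, were read from 1 probe set each.

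The neural plate is patterned along its anterior-posterior axis while it is still a flat sheet. Its anterior end, kept low in Wnt, FGF and retinoic acid signals, turns on a network of homeobox and T-box genes that sets aside a single eye field, which later splits into both retinas. Its posterior end, which adjoins the tailbud, is exposed to those signals, turns on Cdx and Hox genes and overlies the notochord and the mesoderm that will form somites.

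Arrays of the same tissue were alike. Across probe sets, Pearson's r was 0.983 to 0.984 between EF arrays, 0.979 to 0.987 between PNP arrays and 0.915 to 0.932 between an EF and a PNP array. As background ceiling served, for each array, the brightest probe set against Bacillus spikes, which lay between 2.26 and 2.77, and 65.4% to 78.2% of probe sets exceeded it on the EF arrays, against 61.1% to 79.5% on the PNP arrays. The signal of the 3' over the 5' probe set of beta-actin was 0.68 to 1.79 in EF and -0.53 to 0.81 in PNP, and that of GAPDH was 2.57 to 3.60 in EF and 2.55 to 4.13 in PNP, so the beta-actin ranges overlapped only at their ends, and the part of RNA quality in the results was not tested. A gene above the ceiling on none of the 3 arrays of the lower group has only a bound, given as "at least". For it, signals of the lower group under the ceiling were set to the ceiling. For 49 genes named here the lower group exceeded the ceiling on 1 or 2 arrays only, and their folds, where given, are as measured and would be smaller by a factor of up to 1.26 on the same terms.

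Marker genes of the labelled tissues and of other tissues were summed on each array. The 5 eye field markers (*rax*, *six3*, *pax6*, *six6* and *lhx2*) had a summed linear signal of 493 to 810 on the EF arrays, against 30.2 to 47.0 on the PNP arrays. The 4 measured neural plate markers (*sox2*, *sox3*, *ncam1* and *zic2*) summed to 1014 to 1343 in EF and 394 to 583 in PNP, and all 4 lay above the ceiling on every array of both. The 5 posterior axis markers (*hoxc6*, *cdx1*, *cdx4*, *hoxb9* and *hoxd10*) summed to 23.8 to 32.6 in EF, where *cdx1*, *cdx4* and *hoxd10* were under the ceiling on all 3 arrays, and to 344 to 438 in PNP. Markers of axial and paraxial mesoderm were brighter in PNP. The 5 notochord markers (*not*, *chrd.1*, *shh*, *foxa4* and *col2a1*) summed to 417 to 463 in EF and 1313 to 1669 in PNP, with 378 to 438 in whole embryos, and all 5 lay above the ceiling on every EF array. *chrd.1* made up most of the sum in EF and in PNP. Taken singly, 4 of the 5 were lower in EF, and *col2a1* did not pass. The 4 presomitic mesoderm markers summed to 20.4 to 46.6 in EF, where *msgn1* was under the ceiling on all 3 arrays, and to 516 to 689 in PNP, and the 3 muscle markers to 51.3 to 93.9 in EF and 792 to 928 in PNP. Summed markers were brighter in EF for the epidermis (318 to 456 in EF, 22.4 to 30.8 in PNP, 4 genes), the cement gland (408 to 579 in EF, 17.5 to 20.2 in PNP, 3 genes), the neural crest (120 to 162 in EF, 24.4 to 33.1 in PNP, 3 genes) and the head mesendoderm (42.2 to 107 in EF, 23.6 to 30.1 in PNP, 4 genes). Of the head mesendoderm markers 2 were higher in EF, and *hhex* was under the ceiling on every EF array. The 6 endoderm markers (*sox17a*, *sox17b.1*, *gata5*, *gata6*, *darmin* and *a2m*) summed to 285 to 398 in EF and 186 to 300.3 in PNP, against 1028 to 1282 in whole embryos. The LE arrays, labelled lateral endoderm, had 1046 to 1246 for these and 4223 to 5203 for the epidermis markers. Of the endoderm markers 5 lay above the ceiling on every EF array but only 1 on every PNP array, and *darmin* was under it on all PNP arrays. The blood markers *gata1*, *tal1* and *hba1* were under the ceiling on every EF array, and *tal1* and *hba1* on every PNP array. The part of these tissues in the differences below was not tested, and in bulk samples fewer cells of a type and less RNA per cell cannot be told apart.

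In all, 964 probe sets were higher in EF than in PNP, 6.22% of those tested, and 743 were lower, 4.80%. A difference of at least 4-fold was reached by 244 of the higher and 226 of the lower probe sets, at least 8-fold by 93 and 92, and at least 16-fold by 35 and 39. The EF and PNP arrays did not overlap in 960 of the 964 and in 738 of the 743, whereas over all probe sets EF lay wholly above PNP in 20.4% and wholly below it in 16.2%. Without the fold limit 13.8% were higher and 9.73% lower. By detection there were 147 probe sets that exceeded the ceiling on all 3 EF arrays and on no PNP array, and 83 the other way round. Among the called probe sets, 378 higher and 261 lower ones carried no single gene symbol. Read by gene, 454 genes were higher by at least 2-fold (6.98%) and 366 lower (5.63%). The median difference over all probe sets was 0.01, and the median standard error 0.18.

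**Figure D1:**
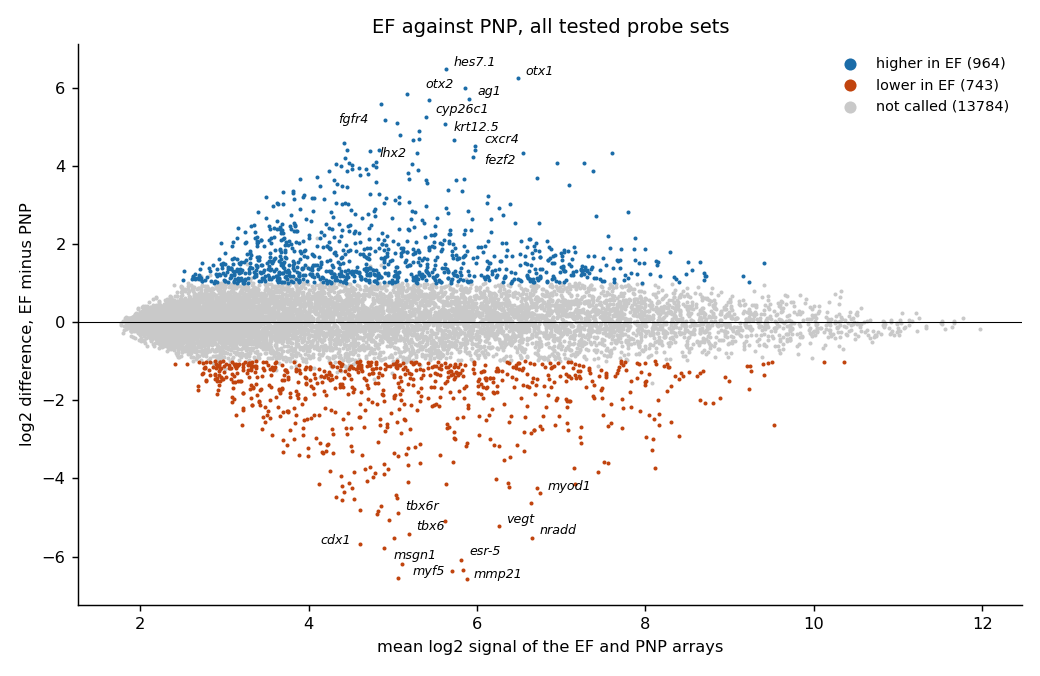
Each point is 1 of the 15491 tested probe sets, with the mean log2 signal of the EF and PNP arrays on the horizontal axis and the log2 difference EF minus PNP on the vertical axis. Blue points are the 964 called higher in EF, orange points the 743 called lower and grey points those not called, and the 5 leading named genes of each rule and direction carry their symbols.

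The largest difference among the named genes, as measured, was that of *hes7.1*, a repressor of the Hairy and Enhancer-of-split family. Its signals were 8.31, 9.37 and 8.93 in EF, against 2.03, 2.62 and 2.57 in PNP. EF exceeded PNP by 6.46 (standard error 0.38, adjusted p = 1.56e-07), or 88.1-fold, and only 1 PNP array exceeded the ceiling. With PNP signals under the ceiling set to it, *hes7.1* was 79.7-fold higher, less than the 81.8-fold fall of *mmp21* given below. *otx2*, a homeobox gene needed for the whole head, read 9.02, 8.77 and 8.77 in EF, against 3.07, 2.45 and 3.09 in PNP, a difference of 5.98 (standard error 0.35, adjusted p = 1.37e-07), and its relative *otx1* read 9.93, 9.32 and 9.55 in EF, against 4.23, 3.19 and 2.69 in PNP, a difference of 6.23 (standard error 0.33, adjusted p = 7.22e-08). In all 3 genes the lowest EF array stood far above the highest PNP array. Only genes without overlap were ranked.

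Of 20 listed regulators of the eye field, 16 were measured, 14 were higher in EF and none was lower. Over all genes 15.1% were higher and 11.2% lower by the same rule. Their median difference was 2.86, against 0.01 over all genes. The study singled out eye genes partly by their level in these EF samples, so this count is not independent evidence. Under the methods' t-test 9 of the 16 were higher. By adjusted p alone that test gave 764 higher and 580 lower of all 15491 probe sets, against 2138 and 1508 in the main fit. *pax6*, a paired-box gene at the top of the eye program in flies and vertebrates, had signals of 8.502, 7.94 and 7.72 in EF, against 3.32, 3.85 and 4.35 in PNP, which is 18.6-fold higher (standard error 0.31, adjusted p = 1.07e-06). *rax*, the retinal homeobox gene, had 6.76, 6.58 and 6.19 in EF, against 2.27, 2.53 and 2.53 in PNP, 16.8-fold higher with PNP above the ceiling on 1 array (standard error 0.31, adjusted p = 1.44e-06). *lhx2*, a LIM homeobox gene required for the optic vesicle in mice, was 20.7-fold higher and *six6*, which drives retinal progenitor growth, 6.69-fold. None of these genes had an EF array that overlapped the PNP arrays. For *pax6*, *rax* and *lhx2* this was a condition of the ranking. *hesx1*, a homeobox repressor of the anterior plate, was 14.5-fold higher, *foxd1*, a forkhead gene of the later temporal retina, 8.18-fold, and *tbx3*, a T-box gene of the eye field network, 5.16-fold. With the mean of the probe sets of a gene the difference was smaller, at 1.53 for *six6*, 1.56 for *foxd1* and 1.33 for *tbx3*. *vsx1* and *crx*, homeobox genes known from retinal neurons, exceeded the ceiling on no PNP array. *vsx1* was at least 5.92-fold higher and *crx* at least 3.93-fold, and *nr2e1*, the tailless orphan receptor, was likewise at least 1.63-fold higher. *vsx1* lost its call without EF replicate 1 or 3 and without PNP replicate 1 or 2, with differences of 2.18 to 4.14 over the omissions of 1 array, the lowest without EF replicate 1 and the highest without EF replicate 2. *pax2*, of the later optic stalk, was 5.14-fold higher through a probe set that may take up related transcripts. The members that did not pass were *eya1*, a cofactor of homeobox proteins in the eye, with 0.25 (standard error 0.14, adjusted p = 0.222), and *tbx2* with -0.25 (standard error 0.14, adjusted p = 0.227). *tbx2* was above the ceiling on no EF or PNP array.

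The L and S copies of *six3*, which *X. laevis* keeps from an ancestral genome doubling, read differently. *six3*, a homeobox repressor of Wnt genes in the forebrain, had L-copy signals of 7.04, 6.03 and 6.08 in EF, against 2.36, 2.03 and 2.77 in PNP, which is 15.98-fold higher (standard error 0.28, adjusted p = 7.23e-07). Its S-copy probe set had 2.69, 2.47 and 3.54 in EF, against 2.63, 3.38 and 2.93 in PNP, and those ranges overlapped, with a difference of -0.08 (adjusted p = 0.875). The S-copy probe set of *otx2* was higher by 0.75 (adjusted p = 0.00174) and that of the L copy by 5.98 (adjusted p = 1.37e-07). For *rax* the L copy differed by 4.07 (adjusted p = 1.44e-06) and the S copy by 3.47 (adjusted p = 9.68e-08).

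**Figure D2:**
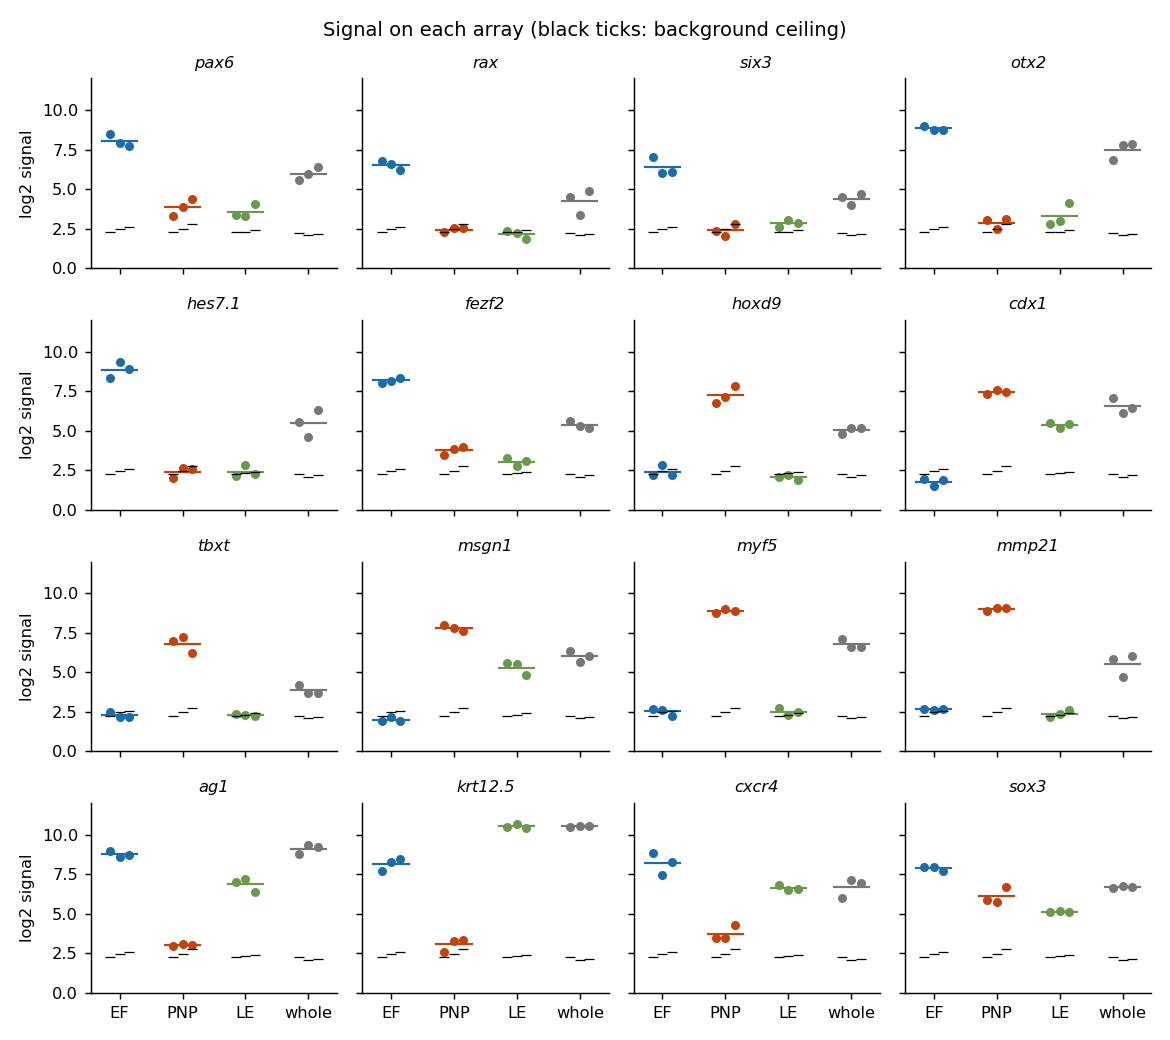
Log2 signals of 16 genes on each array, in groups of 3 arrays of EF (blue), PNP (orange), LE (green) and whole embryos (grey), with a line at each group mean and a black tick at the background ceiling of each array. The eye and forebrain genes stand high in EF alone of the 3 regions, the posterior and mesodermal genes stand high in PNP and near the ceiling in EF, and *ag1*, *krt12.5* and *cxcr4* stand high in EF and in LE.

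Beyond the eye field, 19 of 34 measured forebrain and anterior plate genes were higher (55.9%) and 4 lower (11.8%), with a median of 0.87. Over all genes the shares were 15.1% and 11.2%. *fezf2*, a zinc-finger repressor of the forebrain, had 8.03, 8.16 and 8.35 in EF, against 3.45, 3.87 and 3.99 in PNP, 21.3-fold higher (standard error 0.18, adjusted p = 7.42e-09). *emx2*, of the dorsal telencephalon, was 11.9-fold higher with a mean of 6.59 in EF, 3.01 in PNP, with 7.68 in LE and 6.57 in whole embryos, *nr2f1* and *nr2f2*, the COUP-TF orphan receptors, 8.32-fold and 4.39-fold, and *barhl2*, of the diencephalon, 2.38-fold. The genes *fezf1*, *dbx1*, *nkx2-1* and *lhx9* did not pass, with differences between -0.16 and 0.40. The 4 that were lower were *foxd4l1.1*, a forkhead gene of the early neural ectoderm (9.77-fold lower), the secreted Wnt antagonist *sfrp1* (6.002-fold), *fgf8* (4.83-fold) and *bcl11a* (2.02-fold). *bcl11a* lost its call without EF replicate 1 or 3 and without PNP replicate 1 or 3, with differences of -1.35 to -0.54 over the omissions of 1 array, and lost it also with the replicate block (-1.01) and in the fit of EF and PNP arrays alone. Of these, *fgf8* is also on the tailbud list, *sfrp1* on the Wnt list and *foxd4l1.1* on the list of pan-neural genes. Among 19 measured midbrain and hindbrain genes, 6 were higher (31.6%) and 4 lower (21.1%) with a median of 0.25. The Iroquois genes *irx1*, *irx2* and *irx3* were 8.65-fold, 5.69-fold and 5.71-fold higher, whereas *en2* and *gbx2.2*, which mark the midbrain-hindbrain border, had 0.46 (standard error 0.24, adjusted p = 0.199) and 0.41 (standard error 0.25, adjusted p = 0.284).

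Hox and Cdx genes ran the other way. Of 20 measured, 16 were lower in EF (80%, against 11.2% over all genes) and none was higher, with a median of -2.25. Under the methods' t-test 10 were lower, where 580 of all 15491 probe sets were lower by that test's adjusted p alone. *cdx1*, a caudal homeobox gene that activates Hox genes, had 1.96, 1.49 and 1.90 in EF, against 7.295, 7.59 and 7.47 in PNP, so that by this probe set it was at least 32.4-fold lower (standard error 0.22, adjusted p = 4.51e-09). Its other probe set with signal had -2.20, and the mean of its probe sets had -3.93. *cdx4* was at least 17.5-fold lower. *hoxd9* had 2.18, 2.84 and 2.22 in EF, against 6.73, 7.13 and 7.84 in PNP, 28.3-fold lower with EF above the ceiling on 1 array (standard error 0.26, adjusted p = 7.22e-08), and *hoxa7* had 2.17, 2.37 and 2.22 in EF, against 6.28, 6.44 and 7.06 in PNP, at least 17.9-fold lower (standard error 0.28, adjusted p = 3.19e-07). All EF arrays lay below all PNP arrays in these 4 genes. This was a condition of the ranking for *cdx1*, *hoxd9* and *hoxa7*. Among the others *hoxa2*, of the hindbrain, was 5.22-fold lower, *hoxa3* 9.92-fold, *hoxb4* 5.39-fold, *hoxc5* at least 3.89-fold, *hoxc6* 10.21-fold, *hoxb7* at least 3.71-fold, *hoxc8* at least 5.98-fold, *hoxc10* 4.12-fold, *hoxd10* at least 1.96-fold and *hoxa11* 2.17-fold. *hoxa11* lost its call without EF replicate 1 or 3 and without PNP replicate 3, with differences of -1.38 to -0.63 over the omissions of 1 array, and lost it also in the fit of EF and PNP arrays alone and with the mean of its probe sets (-0.39). With the mean of its probe sets *hoxd9* had -2.64, and the other probe set of *hoxb7* with signal had -1.04. *hoxc10* stood above the ceiling on all 3 EF arrays at 3.79, 4.24 and 3.15, and the probe sets of *hoxc6* and *hoxa11* may take up related transcripts. The 4 that did not pass were *hoxb5*, *hoxd8* and *hoxa13*, which were under the ceiling on all EF and PNP arrays, and *hoxd13*, with -0.23 (standard error 0.14, adjusted p = 0.303).

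**Figure D3:**
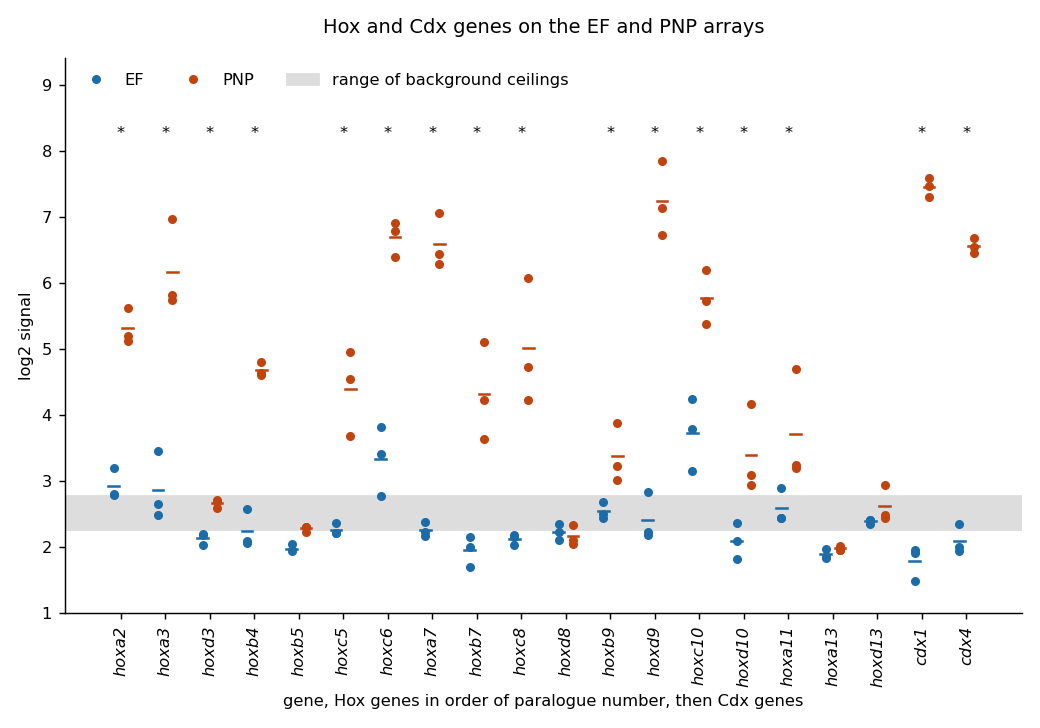
Log2 signals of the 20 measured Hox and Cdx genes on the 3 EF arrays (blue, left) and the 3 PNP arrays (orange, right), with a line at each mean, the range of the background ceilings in grey and an asterisk over each of the 16 genes that were lower in EF at an adjusted p under 0.05. Most EF values lie in or under the grey band, where the array gives no order.

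Genes of the tailbud and presomitic mesoderm were lower in EF in 21 of 44 measured cases (47.7%) and higher in 4 (9.09%), with a median of -0.70. Over all genes 11.2% were lower and 15.1% higher. *msgn1*, a bHLH gene that commits cells to paraxial mesoderm, had 1.90, 2.198 and 1.92 in EF, against 7.96, 7.82 and 7.59 in PNP, at least 41.0-fold lower (standard error 0.22, adjusted p = 3.68e-09). The T-box genes *tbx6*, *tbx6r*, *vegt*, *tbxt* and *tbxt.2*, which specify mesoderm, were 42.6-fold, 29.7-fold, 37.3-fold, 23.0-fold and 23.3-fold lower. *tbxt* and *tbxt.2* exceeded the ceiling on 1 EF array each, and with their other EF signals set to the ceiling they were 19.6-fold and 18.7-fold lower. For *tbxt*, the brachyury gene, the signals were 2.49, 2.17 and 2.19 in EF, against 6.96, 7.25 and 6.196 in PNP. *esr-5* and *hes7.2*, repressors of the Hairy and Enhancer-of-split family that are not counted in this list, were 68.1-fold and 22.6-fold lower. Thus 2 relatives of *hes7.1* moved opposite to it. *dlc*, a Notch ligand of the segmental plate, was at least 3.88-fold lower and *evx1*, a homeobox gene of the tailbud, 2.998-fold. The 4 members higher in EF were *hes7.1*, *ripply2.2* (8.96-fold), *ripply2.1* (at least 2.31-fold) and the protocadherin *pcdh8l* (1.93-fold). The Ripply proteins are repressors of somite borders, and *ripply2.2* had a mean signal of 6.50 in EF, 3.34 in PNP, with 7.44 in LE and 7.31 in whole embryos. *wnt8a*, a Wnt ligand of the posterior mesoderm, had -1.17 (standard error 0.48, adjusted p = 0.106) and did not pass.

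The notochord and organizer list had 13 of 29 measured genes lower (44.8%) and 4 higher (13.8%), with a median of -0.47. Over all genes 11.2% were lower and 15.1% higher. *mmp21*, a matrix metalloproteinase, had the largest fall among the ranked genes that lay above the ceiling on all EF and PNP arrays, with 2.71, 2.59 and 2.67 in EF, against 8.87, 9.08 and 9.09 in PNP, 81.8-fold lower (standard error 0.27, adjusted p = 8.48e-09). *rrbp1*, a ribosome-binding protein of the endoplasmic reticulum, was 17.6-fold lower, *not*, a homeobox gene of the notochord, 8.99-fold, *admp*, an organizer BMP ligand, 11.6-fold, *col9a1*, a collagen of the notochord sheath, 8.51-fold, *foxa4* 3.63-fold and *shh*, the floor plate and notochord signal, 3.06-fold. *chrd.1*, the BMP antagonist Chordin, was 3.25-fold lower and read 8.40, 8.46 and 8.28 in EF, against 10.27, 9.82 and 10.14 in PNP, so that it was far above the ceiling in both tissues. *col2a1*, another collagen on this list, did not pass. The 4 higher genes were *sfrp2*, *gsc*, *dkk1* and *frzb2*, of which *gsc* and *dkk1* belong to the head organizer. In muscle, 8 of 30 measured genes were lower (26.7%) and none was higher. *myf5*, which starts the muscle program, had 2.69, 2.63 and 2.26 in EF, against 8.77, 9.03 and 8.88 in PNP, 82.5-fold lower (standard error 0.18, adjusted p = 1.42e-09), and *myod1* had 4.26, 4.99 and 4.42 in EF, against 8.89, 9.19 and 8.74 in PNP, 20.8-fold lower (standard error 0.24, adjusted p = 8.12e-08). The myosin light chain *myl1* was 16.1-fold lower, *mef2d* 9.03-fold, *smyd1* 4.34-fold and *mylpf* 2.67-fold. *mylpf*, also a myosin light chain, lost its call without EF replicate 1 or 3 and without PNP replicate 1, 2 or 3, with differences of -1.81 to -1.06 over the omissions of 1 array, and lost it also with the replicate block (-1.42). The regulators *myf6*, *myog* and *mef2a* were above the ceiling on no EF or PNP array and did not pass. The probe sets of *myod1* and *myl1* may take up related transcripts. The fold of *myl1* is that of its L copy. Its S-copy probe set had -1.12 (adjusted p = 0.0691) and did not pass, and the mean of its probe sets had -2.56. Contractile genes such as *tnnt3* (0.01, standard error 0.39, adjusted p = 0.993), *tpm1* (-0.39, standard error 0.44, adjusted p = 0.6) and *des.1* (0.90, standard error 0.42, adjusted p = 0.157) did not pass. The count of 8 lower genes became 5 without EF replicate 1 and 5 without PNP replicate 1, and without PNP replicate 3 there was 1 higher gene.

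Genes of the plate border and neural crest were higher in EF in 17 of 28 measured cases (60.7%) and lower in 1 (3.57%), with a median of 1.28. Over all genes 15.1% were higher and 11.2% lower. The median of their signals was 5.28 to 5.57 on the EF arrays and 3.09 to 3.33 on the PNP arrays. It was 5.26 to 5.54 on the LE arrays and 5.15 to 5.57 on those of whole embryos, so EF stood at their level and PNP below it. *cxcr4*, a chemokine receptor, had 8.88, 7.48 and 8.31 in EF, against 3.46, 3.46 and 4.27 in PNP, 22.5-fold higher (standard error 0.36, adjusted p = 2.22e-06). *msx1*, a BMP-induced homeobox gene of the border, had 6.61, 6.199 and 6.91 in EF, against 2.53, 2.64 and 2.73 in PNP, 15.4-fold higher with PNP above the ceiling on 2 arrays (standard error 0.18, adjusted p = 1.71e-08). *sox9* and *snai2*, which specify crest, were 8.39-fold and 4.82-fold higher, *tfap2b* and *tfap2a*, of border and epidermis, 7.43-fold and 2.93-fold, and *zic1*, *zic4* and *zic5*, zinc-finger genes of the plate and its border, 7.58-fold, 4.03-fold and 8.97-fold. *foxd3*, a forkhead gene of premigratory crest, had signals of 3.11, 3.86 and 2.996 in EF, against 3.53, 3.12 and 3.35 in PNP, a difference of -0.01 (standard error 0.22, adjusted p = 0.982). The member that was lower, the integrin *itga5*, which many tissues express, was 2.23-fold lower and lost its call without EF replicate 1 and without PNP replicate 1 or 2, with differences of -1.46 to -0.66 over the omissions of 1 array, and lost it also in the fit of EF and PNP arrays alone and with the mean of its probe sets (-0.28). The difference of *zic5* was 3.16, and 3.79 without EF replicate 2.

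Epidermal genes were found on both sides. Of 44 measured, 17 were higher (38.6%) and 8 lower (18.2%), against 15.1% and 11.2% over all genes, with a median of 0.09. *krt12.5*, an epidermal keratin, had 7.73, 8.25 and 8.46 in EF, against 2.59, 3.29 and 3.37 in PNP, 33.4-fold higher (standard error 0.22, adjusted p = 1.09e-08), and *krt12.4*, *krt70*, *krt7* and *krt19* were 11.04-fold, 14.5-fold, 16.8-fold and 5.03-fold higher. *grhl1* and *grhl3*, Grainyhead factors of the surface layer, were 8.19-fold and 4.31-fold higher, and the secreted lectin *itln1* 4.90-fold. In each of these genes EF lay below LE and whole embryos. The mean of *krt12.5* was 8.15 in EF, 3.08 in PNP, with 10.54 in LE and 10.53 in whole embryos. That of *itln1* was 5.297 in EF, 3.005 in PNP, with 10.45 in LE and 10.16 in whole embryos. The keratins of simple epithelia, *krt8.1* and *krt18.1*, were 4.16-fold and 4.002-fold lower in EF, and so were the Vent homeobox genes *ventx2.1* (6.48-fold), *ventx2.2* (2.75-fold) and *ventx3.2* (at least 1.89-fold), which act in ventral mesoderm and ectoderm under BMP control. *ventx1.1*, on the same list, was 1.57-fold higher and lost its call without EF replicate 1 or 3 and without PNP replicate 1 or 2, with differences of 0.53 to 0.82 over the omissions of 1 array, and lost it also under quantile normalization and with the mean of its probe sets (0.17). *ca12*, *foxi1* and *atp6v1b1*, genes of ionocytes, did not pass. The mean of *ca12* was 2.40 in EF, 3.05 in PNP, with 8.08 in LE and 7.34 in whole embryos, and *foxi1* and *atp6v1b1* were above the ceiling on no EF array. In the cement and hatching gland list 3 of 8 measured genes were higher (37.5%) and none was lower. *ag1*, a secreted protein of the cement gland, had 8.98, 8.56 and 8.74 in EF, against 2.97, 3.11 and 3.05 in PNP, 52.6-fold higher (standard error 0.21, adjusted p = 2.36e-09), and its relative *agr2* was 9.26-fold higher, with a mean of 5.54 in EF, 2.33 in PNP, with 4.63 in LE and 8.15 in whole embryos. *astl3a.1*, a hatching enzyme, had -0.04 (standard error 0.34, adjusted p = 0.953).

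Of 27 measured endoderm genes 4 were higher and 4 lower, 14.8% each, near the 15.1% and 11.2% over all genes. *gata6* was 3.32-fold higher with a mean of 4.14 in EF, 2.41 in PNP, with 8.40 in LE and 7.95 in whole embryos, and *sox17a* was 1.79-fold higher with a mean of 3.26 in EF, 2.43 in PNP, with 4.76 in LE and 4.89 in whole embryos. *sox17b.1*, *gata5*, *gata4* and *darmin* did not pass, with differences between -0.26 and 0.32. The 4 lower genes were *vegt*, *foxa4*, *foxa1* and the transporter *slc16a3*, and *vegt* and *foxa4* are counted among the mesodermal genes too. In the head mesendoderm 7 of 24 measured genes were higher and 3 lower, the lower share being near the 11.2% over all genes. Of these 24 genes 22 are also on other lists. The largest difference was that of *otx2*, already counted among the eye field regulators, so these counts are not separate from those of the other lists. *shisa1.1*, an antagonist of Wnt and FGF receptors, was at least 7.94-fold higher, *gsc* 4.87-fold, *tbx1*, of the pharyngeal region, 3.196-fold and *dkk1*, a secreted Wnt antagonist, 3.19-fold. *cer1*, *hhex* and *frzb*, early anterior endoderm genes, had differences between -0.10 and 0.29 and did not pass. Heart, blood and lateral mesoderm genes gave 2 higher and 1 lower of 33 measured, 6.06% and 3.03%, both under the shares over all genes. The lower one, *lmo2*, of the blood lineage, was 2.38-fold lower. It lost its call without EF replicate 1, 2 or 3 and without PNP replicate 3, with differences of -1.54 to -0.72 over the omissions of 1 array, and lost it also with the replicate block (-1.25) and in the fit of EF and PNP arrays alone. Without PNP replicate 1 the count of lower genes was 2.

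Genes that mark neural tissue as a whole leaned towards EF. Of 32 measured, 13 were higher (40.6%) and 3 lower (9.4%), with a median of 0.26. *sox3*, a progenitor factor, had 7.98, 7.96 and 7.71 in EF, against 5.88, 5.77 and 6.70 in PNP, 3.38-fold higher (standard error 0.20, adjusted p = 4.72e-05), without overlap. The adhesion molecules *ncam1* and *cdh2* were 3.63-fold and 3.202-fold higher, *sox11* 2.84-fold and the tubulin *tubb2b* 3.80-fold. *sox2* had 5.95, 5.86 and 5.76 in EF, against 5.08, 4.93 and 5.62 in PNP, a difference of 0.65 (standard error 0.36, adjusted p = 0.233), read from a probe set that may take up related transcripts. It did pass in the fit of EF and PNP arrays alone and with the mean of its probe sets. *sall1* (3.08-fold lower) and *stmn1* (1.79-fold lower) joined *foxd4l1.1* on the other side, and for *stmn1* the difference was 0.76 (adjusted p = 0.00814) for the L-copy probe set and -0.84 (adjusted p = 0.00588) for the S-copy probe set, so no direction can be given. Of 38 measured genes of primary neurogenesis and Notch signalling, 6 were higher and 6 lower, 15.8% each, near the 15.1% and 11.2% over all genes. The Hairy and Enhancer-of-split genes divided between the tissues. *hes7.1* and *hes1* (at least 8.41-fold) were higher in EF, while *hes7.2*, *hes5.3* (9.77-fold) and *hes5.6* (at least 2.1005-fold) were lower. *jag1*, a Notch ligand, was 2.70-fold higher, *dlc* was lower, and *dll1*, the ligand of primary neurons, had 0.34 (standard error 0.33, adjusted p = 0.543). *gadd45g*, which is expressed where neurons leave the cycle, was 12.6-fold lower. The proneural and neuronal genes *neurod1*, *neurod4*, *neurog2*, *tubb3* and *pou4f1* did not pass, and *neurod4* and *tubb3* were above the ceiling on no EF or PNP array.

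In the FGF pathway 8 of 20 measured genes were lower in EF (40%) and 3 higher (15%), with a median of -0.37. Over all genes 11.2% were lower and 15.1% higher. The ligands *fgf20* and *fgf8* were 10.6-fold and 4.83-fold lower, and *fgf8* read 7.22, 6.44 and 6.74 in EF, against 8.89, 9.17 and 9.15 in PNP. Of the genes that FGF signals induce, *egr1* was 14.2-fold lower, the ETS genes *etv1* and *etv4* 3.60-fold and 2.097-fold, and the feedback inhibitors *spry2* and *dusp6* 2.85-fold and 1.45-fold. *dusp6* lost its call without PNP replicate 1, with differences of -0.66 to -0.44 over the omissions of 1 array. *fgfr4* had 7.69, 7.70 and 7.12 in EF, against 2.19, 2.37 and 2.42 in PNP, at least 31.9-fold higher (standard error 0.17, adjusted p = 1.95e-09), and its mean was 7.50 in EF, 2.32 in PNP, with 7.76 in LE and 6.995 in whole embryos. *fgfr1* and *fgfr2* did not pass, with 0.32 (standard error 0.18, adjusted p = 0.232) and 0.65 (standard error 0.31, adjusted p = 0.164). The ligands *fgf3* (-0.61, standard error 0.37, adjusted p = 0.273) and *fgf4* (-0.20, standard error 0.12, adjusted p = 0.271) were above the ceiling on no EF array and did not pass.

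Enzymes of retinoic acid turnover stood on opposite sides. *cyp26c1*, which degrades retinoic acid, had 7.43, 8.76 and 7.87 in EF, against 2.65, 2.69 and 2.98 in PNP, 37.9-fold higher in EF (standard error 0.33, adjusted p = 2.51e-07), whereas its relative *cyp26a1* was 2.14-fold lower with 5.01, 5.61 and 5.32 in EF, against 6.203, 6.25 and 6.78 in PNP. *aldh1a2*, which makes retinoic acid, was 2.56-fold lower with 3.40, 4.11 and 3.26 in EF, against 5.40, 5.17 and 4.26 in PNP, and its mean was 3.59 in EF, 4.94 in PNP, with 8.53 in LE and 6.31 in whole embryos. *rdh10*, which supplies its substrate, was 2.59-fold higher. The receptors *rarg* and *rara* were 2.37-fold and at least 1.35-fold lower, with *rara* under the ceiling on all EF arrays. In total 2 of 16 measured genes of this pathway were higher and 5 lower. The higher share was under the 15.1% over all genes, and the lower share was above the 11.2% over all genes.

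Of 54 measured Wnt ligands, receptors and antagonists 8 were higher and 12 lower, with a median of -0.02. These are 14.8% and 22.2%, against 15.1% and 11.2% over all genes. Antagonists were found on both sides. *sfrp2* had 9.64, 9.37 and 8.92 in EF, against 5.15, 5.29 and 5.27 in PNP, 16.8-fold higher (standard error 0.29, adjusted p = 8.22e-07), and *dkk1* and *frzb2* were higher, while *sfrp1* was lower with 5.35, 7.01 and 6.53 in EF, against 9.08, 9.16 and 8.40 in PNP and *wif1* was at least 1.44-fold lower. *wif1* lost its call without EF replicate 1, 2 or 3 and without PNP replicate 2 or 3, with differences of -0.86 to -0.64 over the omissions of 1 array. The receptor *fzd3* was 8.13-fold higher, *fzd2* 1.73-fold lower, and *fzd7*, *fzd8* and *fzd10* did not pass. *fzd8* did pass without PNP replicate 1 and with the mean of its probe sets (1.73). *tcf7l1*, a repressor of Wnt targets in the head, was 2.36-fold higher, whereas *tcf7* was 1.86-fold lower. The ligand *wnt8b*, of the forebrain, was 3.70-fold higher. *wnt11b*, *wnt5a* and *wnt5b*, ligands of the planar polarity branch, were 3.23-fold, 2.14-fold and at least 1.39-fold lower, as were its components *prickle1* (6.51-fold) and *ror2* (1.58-fold), while *vangl2* had -0.43 (standard error 0.23, adjusted p = 0.221). *sp5l*, a target of Wnt signals, was 6.33-fold lower, and *axin2*, another, had -0.32 (standard error 0.20, adjusted p = 0.299). *wnt5b* lost its call without EF replicate 1 or 3 and without PNP replicate 1 or 2, with differences of -0.93 to -0.49 over the omissions of 1 array, and lost it also in the fit of EF and PNP arrays alone, and *ror2* lost its call without EF replicate 1 or 3 and without PNP replicate 1, 2 or 3, with differences of -0.97 to -0.49 over the omissions of 1 array, and lost it also in the fit of EF and PNP arrays alone.

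BMP, Nodal and TGF-beta genes were lower in 17 of 52 measured cases (32.7%) and higher in 3 (5.77%), with a median of -0.17. The ligands *gdf3*, *admp* and *nodal* were 13.9-fold, 11.6-fold and 4.62-fold lower, the antagonists *chrd.1*, *fst* and *nog* 3.25-fold, 2.41-fold and 1.51-fold, and the inhibitory *smad7* 3.08-fold. Those that were higher were *msx1*, *ventx1.1*, whose loss of the call under several alternatives is given with the epidermal genes, and *id2*, an inhibitor of bHLH factors, at 9.1001-fold for the L copy. The S-copy probe set of *id2* had a difference of 0.81 (adjusted p = 0.0744). *bmp4* and *bmp2* did not pass, with -0.19 (standard error 0.18, adjusted p = 0.537) and 0.20 (standard error 0.25, adjusted p = 0.651), and the mean of *bmp4* was 3.61 in EF, 3.80 in PNP, with 5.92 in LE and 5.43 in whole embryos. In the Hedgehog pathway 2 of 12 measured genes were higher and 1 lower, 16.7% and 8.33%, near the 15.1% and 11.2% over all genes. Against the fall of *shh*, *gli3*, its main transcriptional repressor, had 7.78, 7.43 and 7.84 in EF, against 3.75, 3.83 and 4.48 in PNP, 12.7-fold higher (standard error 0.23, adjusted p = 2.83e-07), and the co-receptor *boc* was 2.73-fold higher. *ptch1* and *gli1*, targets of the pathway, had 0.15 and -0.07 and did not pass, and *gli1* was above the ceiling on no EF or PNP array.

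Matrix genes were lower in EF in 14 of 49 measured cases (28.6%) and higher in 4 (8.16%). After *mmp21*, *itga3* was 8.79-fold lower, *col9a1* 8.51-fold, the collagen chaperone *serpinh1* 3.99-fold, *sparc* 3.97-fold and *mmp14* 2.56-fold. *fn1*, fibronectin, was 1.54-fold lower and lost its call without EF replicate 1 or 3 and without PNP replicate 2 or 3, with differences of -0.77 to -0.44 over the omissions of 1 array, and lost it also in the fit of EF and PNP arrays alone and under quantile normalization. With the mean of its probe sets *itga3* had -1.06, against -3.14 from its own. *col18a1* and the hyaluronan synthase *has1* were 6.32-fold and 5.75-fold higher. Among 31 measured adhesion and junction genes 7 were higher and 5 lower, 22.6% and 16.1%, against 15.1% and 11.2% over all genes. Next to *ncam1* and *cdh2*, the claudin *cldn4* was 2.94-fold higher, while *pcdh8.2*, the paraxial protocadherin, was 4.57-fold lower and *cdh3*, C-cadherin of the early embryo, 1.48-fold. For *jup*, plakoglobin, the difference was -1.14 (adjusted p = 0.00137) for the L-copy probe set and 0.75 (adjusted p = 0.00761) for the S-copy probe set, so no direction can be given. *epha2* was 8.90-fold lower and *efna1*, an ephrin ligand, 3.79-fold higher.

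DNA replication genes were higher in EF across most of the machinery. Of 50 measured, 31 were higher (62.0%) and 1 lower (2%), against 15.1% and 11.2% over all genes, with a median difference of 1.05. The median of their signals was 5.19 to 5.40 on the EF arrays and 3.93 to 4.34 on the PNP arrays, with 4.25 to 4.54 on the LE arrays and 3.90 to 4.42 on those of whole embryos. *rrm2.2*, a subunit of ribonucleotide reductase, had 8.86, 8.02 and 8.77 in EF, against 4.60, 4.68 and 5.31 in PNP, 12.9-fold higher (standard error 0.27, adjusted p = 1.12e-06). Of the MCM helicase, *mcm4* was 4.19-fold higher, *mcm6.2* 3.21-fold, *mcm2* 2.96-fold and *mcm5* 2.43-fold, while *mcm7*, *mcm3* and *mcm6* had -0.11 (standard error 0.17, adjusted p = 0.728), -0.04 (standard error 0.14, adjusted p = 0.881) and -0.62 (standard error 0.36, adjusted p = 0.261) and did not pass. The sliding clamp *pcna* had 8.75, 8.69 and 8.76 in EF, against 7.23, 7.195 and 7.24 in PNP, 2.84-fold higher (standard error 0.11, adjusted p = 1.18e-06), and the clamp loader subunits *rfc2*, *rfc3*, *rfc4* and *rfc5* were 3.81-fold, 2.26-fold, 2.03-fold and 2.23-fold higher. *orc1* and *orc6*, of the origin recognition complex, were 3.62-fold and 2.46-fold higher, *cdc45* 3.46-fold and the licensing factor *cdt1* 2.76-fold, while its inhibitor *gmnn* had -0.23 (standard error 0.16, adjusted p = 0.362) and the loader *cdc6* 0.03 (standard error 0.18, adjusted p = 0.939). The primase subunits *prim1* and *prim2* were 2.11-fold and 2.48-fold higher and the polymerase subunit *pola2* 2.91-fold. The EF and PNP arrays of *rrm2.2*, *pcna*, *mcm4* and *mcm2* did not overlap. Leaving out 1 array at a time gave 27 to 31 higher genes, and quantile normalization gave 30 and median centring 29. The methods' t-test gave 13, where 764 of all 15491 probe sets were higher by that test's adjusted p alone. The gene that was lower, the cyclin *ccne2*, lost its call without EF replicate 1, 2 or 3 and without PNP replicate 1 or 2, with differences of -0.60 to -0.40 over the omissions of 1 array, and lost it also in the fit of EF and PNP arrays alone, and *prim2* lost its call without PNP replicate 2, with differences of 0.94 to 1.63 over the omissions of 1 array.

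**Figure D4:**
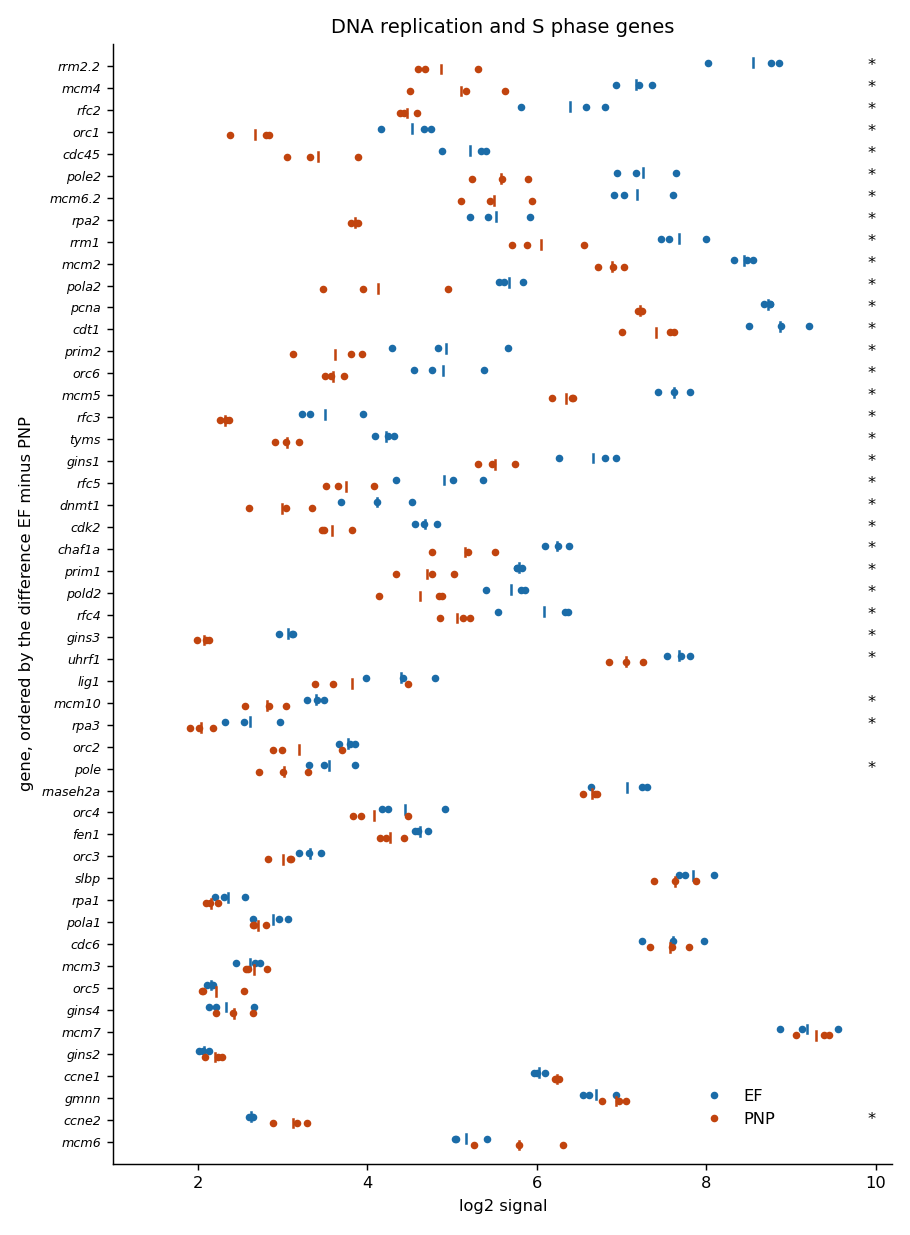
Log2 signals of the 50 measured DNA replication and S phase genes on the 3 EF arrays (blue, upper in each row) and the 3 PNP arrays (orange, lower), with a line at each mean, ordered by the difference EF minus PNP. Asterisks mark the 31 genes that were higher and the 1 that was lower in EF at an adjusted p under 0.05, and the differences run from 3.68 for *rrm2.2* to -0.62 for *mcm6*.

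Of 49 measured mitotic genes, 20 were higher (40.8%) and 1 lower (2.04%), against 15.1% and 11.2% over all genes, with a median of 0.42. *kif4a* and *kif2c*, mitotic kinesins, were 3.44-fold and 2.11-fold higher, the kinase *aurka* 3.38-fold, the checkpoint gene *bub1b* 3.08-fold, the condensin subunit *smc2* 2.41-fold and *cdk1*, the kinase of mitotic entry, 2.096-fold with 6.90, 7.50 and 7.38 in EF, against 6.36, 5.92 and 6.29 in PNP. Cyclins and other mitotic genes such as *ccna2* (-0.11, standard error 0.17, adjusted p = 0.698), *ccnb2* (-0.24, standard error 0.17, adjusted p = 0.384) and *plk1* (0.25, standard error 0.14, adjusted p = 0.249) did not pass, and *wee1*, which holds back mitotic entry, was 1.94-fold lower. The count of 20 became 13 without PNP replicate 2 and 7 under the methods' t-test. By the adjusted p of that test alone, 764 of all 15491 probe sets were higher.

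Of 60 measured cytosolic ribosomal protein genes none was higher and 5 were lower, with differences between -0.88 and 0.24, and of 47 measured respiratory chain genes none was higher and 5 were lower, with differences between -1.36 and 0.54 and medians of -0.14 for the ribosomal proteins and -0.18 for the respiratory chain. The lower genes were 8.33% and 10.6% of these lists, against 11.2% over all genes. Those 2 counts of 5 were not stable: leaving out 1 array at a time gave 1 to 7 for the ribosomal proteins, the low value without PNP replicate 1 or 2 and the high one without PNP replicate 3, and 2 to 8 for the respiratory chain, the low value without EF replicate 1 or PNP replicate 1 and the high one without PNP replicate 3. Of 4 measured pigment genes *pmel*, *tyrp1* and *mitf* were 1.96-fold, 1.81-fold and 1.41-fold lower and *rab27a* was 1.65-fold higher, and without PNP replicate 2 the count of lower genes was 1. *pmel* lost its call without EF replicate 1 or 3 and without PNP replicate 1, 2 or 3, with differences of -1.105 to -0.74 over the omissions of 1 array. *mitf* lost its call without PNP replicate 2, with differences of -0.59 to -0.42 over the omissions of 1 array, and lost it also with the mean of its probe sets (-0.27), and *rab27a* lost its call with the mean of its probe sets (0.31).

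**Figure D5:**
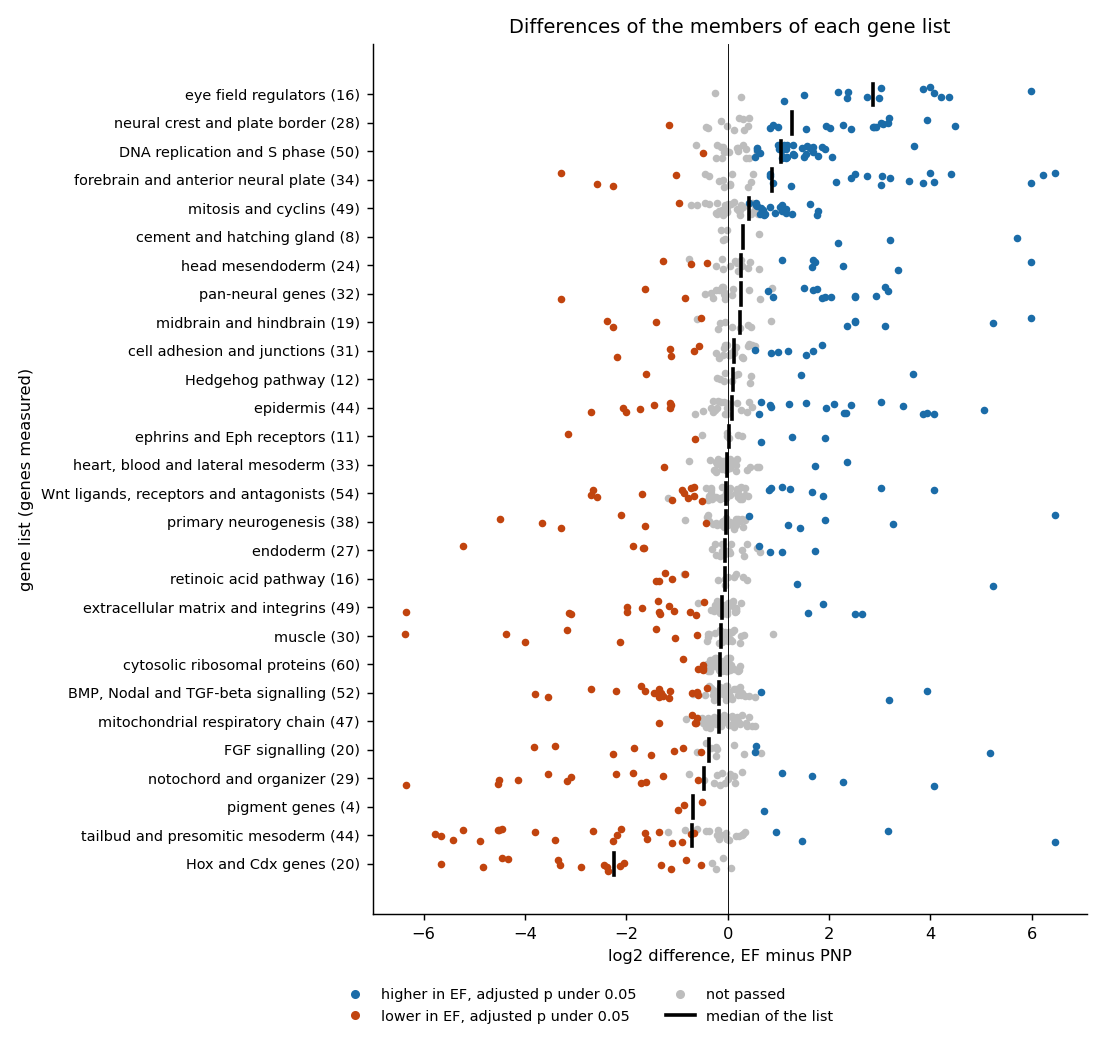
Each point is a gene of 1 of the 28 lists, placed by its log2 difference EF minus PNP, with blue points higher and orange points lower in EF at an adjusted p under 0.05, grey points not passed and a black bar at the median of the list. The medians run from 2.86 for the eye field regulators to -2.25 for the Hox and Cdx genes, with 0.01 over all genes, and lists share genes.

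Several of the most different genes belong to none of these groups. Higher in EF were *gjb2*, a gap junction connexin, with 9.96, 9.80 and 9.52 in EF, against 6.01, 4.82 and 5.49 in PNP, 20.0-fold (standard error 0.24, adjusted p = 1.04e-07), *vill*, a villin-like actin-binding protein, 17.2-fold, *olfm4*, a secreted olfactomedin, 15.7-fold, and *aqp3*, a water and glycerol channel, at least 17.7-fold. The mean of *gjb2* was 9.76 in EF, 5.44 in PNP, with 10.19 in LE and 10.09 in whole embryos, that of *vill* 6.85 in EF, 2.75 in PNP, with 8.58 in LE and 8.51 in whole embryos and that of *aqp3* 6.65 in EF, 2.26 in PNP, with 2.36 in LE and 4.65 in whole embryos. Lower in EF were *nradd*, a relative of the neurotrophin receptor with a death domain, with 3.99, 4.13 and 3.57 in EF, against 9.12, 9.57 and 9.54 in PNP, 45.8-fold (standard error 0.26, adjusted p = 2.42e-08), *rfk*, riboflavin kinase, 18.5-fold, *xmc*, a coiled-coil protein of the marginal zone, 17.7-fold, and *vdac1*, a channel of the mitochondrial outer membrane, 17.3-fold. The arrays of EF and PNP did not overlap in any of these 8 genes, which was a condition of their ranking. With the mean of the probe sets of a gene the difference was -2.47 for *vdac1*, -2.13 for *rfk* and 3.09 for *vill*.

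Of the 964 probe sets higher in EF, the mean of whole embryos lay between EF and PNP for 725, above both for 213 and below both for 26. The LE mean was nearer to EF for 413 of them (42.8%) and nearer to PNP for 551, and it reached or passed the EF mean for 211. Of the 743 lower in EF, the mean of whole embryos lay between for 541, above both for 109 and below both for 93, and the LE mean was nearer to EF for 529 (71.2%) and nearer to PNP for 214. *pax6*, higher in EF, had a mean of 8.06 in EF, 3.84 in PNP, with 3.56 in LE and 5.98 in whole embryos, and *hes7.1* 8.87 in EF, 2.41 in PNP, with 2.41 in LE and 5.502 in whole embryos. *myf5*, lower in EF, had a mean of 2.52 in EF, 8.89 in PNP, with 2.50 in LE and 6.76 in whole embryos, and *mmp21* 2.66 in EF, 9.01 in PNP, with 2.38 in LE and 5.51 in whole embryos. *gjb2*, *krt7*, *fgfr4* and *vill*, higher in EF, had LE means above the EF mean, and *vegt*, lower in EF, had a mean of 3.65 in EF, 8.87 in PNP, with 7.91 in LE and 6.88 in whole embryos.

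*X. laevis* carries L and S copies of many genes, and their probe sets did not always agree. Of 695 genes with a measurable probe set for each copy, 186 had at least 1 copy called by at least 2-fold. Both copies passed in the same direction in 93 of these, only 1 passed in 88, and in 5 (*calr*, *dcaf12*, *hyal2*, *jup* and *mark2*) the copies passed in opposite directions. The copies lay on the same side of 0 in 150 of the 186, and the median distance between the L and S differences was 0.94. In 22 genes the copies differed by over 2 in log2, among them *pax3*, a paired-box gene of the plate border and somites. Its L-copy probe set, from which the gene was read, had 8.33, 8.498 and 7.96 in EF, against 8.44, 8.44 and 8.29 in PNP, a difference of -0.13 (adjusted p = 0.638). Its S-copy probe set had 7.73, 8.001 and 7.50 in EF, against 2.67, 3.25 and 2.68 in PNP, a difference of 4.88 (adjusted p = 1.19e-08), and may take up related transcripts. Over all genes, 233 called genes had 311 further probe sets with signal, of which 265 lay on the same side, 183 passed in the same direction and 7 passed in the opposite one. Reading a gene from the mean of its probe sets moved the fold by over 1.5 times for 49 of the 206 genes named here that passed, towards 0 or past it for 46 of them. Among these *otx2* had 2.96, *lhx2* 2.33, *six3* 1.34, *msx1* 1.96, *krt7* 2.18, *vegt* -2.89 and *fgfr4* 3.39. Further ones were *cdx1* with -3.93, *six6* with 1.53, *foxd1* with 1.56, *tbx3* with 1.33 and *snai2* with 1.03. Copies and probe sets cannot be told apart here as the source of such distances.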

How the data were processed

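The deposited values are signal intensities per probe set, which the authors preprocessed with RMA in GeneSpring GX on a linear scale. By the methods the mean signal was also scaled to that of whole stage 15 embryos or of control animal cap cells; how this entered the deposited values is not given in the sources used here. RMA is meant to equalise arrays, so a difference is relative to the other transcripts of the array. The deposited arrays were not fully equal. Their medians were 3.24 to 3.28 in EF and 3.09 to 3.25 in PNP, and their upper quartiles 5.43 to 5.47 and 5.22 to 5.48. Intensities were taken to log2, and 15491 probe sets of 12 arrays were fitted by group with limma 3.58.1 (lmFit and eBayes, R 4.3.3), with the contrast EF minus PNP and Benjamini-Hochberg adjustment over all of them. Symbols came from the platform annotation updated through RefSeq gene identifiers, and 9304 probe sets had 1 symbol, 195 several and 5992 none. L and S copies were joined as a gene, read from the probe set of an accession that the study's tables name (24 genes) or from that of the highest mean. The ranked genes were the 10 with the largest difference in each direction among called genes without overlap between groups and above the ceiling on all arrays, and the 10 with the largest bound among those under it on at least 1 array of the lower group. Other genes are examples from 28 lists, and any outside them were singled out with values known. The members and lists were chosen with earlier results of these data known. The methods give different days and females for the triplicates, but the labels tie no replicate number to either, so p-values measure the spread between these arrays. The number of arrays limits the precision. The fit was tested on simulated data. The alternatives were a replicate block, EF and PNP alone, the methods' t-test, an intensity trend, quantile normalization, median centring, no fold limit, a limit to bright probe sets, averaging the probe sets of a gene and leaving out each array.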

Additional observations from a re-analysis of the deposited data

How the results depend on the processing

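The calls of probe sets kept their counts within 1.5 times of 964 higher and 743 lower in EF when the fit held EF and PNP arrays alone, under an intensity trend, quantile normalization, median centring or a limit to bright probe sets. Leaving out an array in turn gave 872 to 1049 higher and 640 to 835 lower. The methods' t-test, adjusted and with the fold limit, gave 512 higher and 420 lower, and the fit with no fold limit 2138 and 1508. By adjusted p alone, the rule for members of a list, the t-test gave 764 higher and 580 lower. The limma fit of the same EF and PNP arrays gave 961 higher and 733 lower with the fold limit. It has the same differences as the t-test and another estimate of the spread, that of eBayes. The cause of the lower t-test counts was not tested further. Of 56 counts of higher or lower list members, 35 moved by more than a small shift in at least 1 alternative. Under the methods' t-test the count of lower genes was 7 for BMP, Nodal and TGF-beta signalling, 6 for the matrix and 4 for the Wnt list. That of higher pan-neural genes was 6. Of all calls 56.5% were higher in EF, 51.6% after median centring and 50.8% after quantile normalization. No deviation shared by EF and PNP arrays of the same replicate number was visible, which does not exclude that they shared a female or a day. For this check the group mean of each probe set was subtracted, and the remaining deviations were correlated. The correlations were -0.142 to -0.0212 between same-numbered EF and PNP arrays and -0.0553 to 0.115 between others. A replicate block gave 967 higher and 740 lower. Among named genes the block took the call from *bcl11a*, *lmo2* and *mylpf*. Of 269 named genes, 154 kept their direction and their side of the threshold in all alternatives tried. Of the 206 that passed, 125 did so throughout, and 81 lost the call in at least 1 alternative, most often under the methods' t-test. Averaging the probe sets of a gene moved the fold of 49 of the 206 by over 1.5 times. In 19 of 3734 pairs of gene and alternative a gene gained a call. With the mean of probe sets *axin2*, *en2*, *fgfr2*, *fzd8*, *hoxb5*, *plk1* and *sox2* passed. Without PNP replicate 1 *fzd8*, *gata1* and *wnt8a* passed, without PNP replicate 3 *ca12*, without EF replicate 1 *nkx2-1* and without EF replicate 2 *wnt8a*. *sox2* passed with EF and PNP alone, *nkx2-1* under quantile normalization and *gata1* under the trend. *hoxb5* passed under the trend, t-test and median centring. The 26 genes whose sign turned in some alternative were, apart from the copy pairs *dcaf12*, *hyal2* and *mark2*, not called. Under quantile normalization the difference was -0.0074 for *cdc6*, -0.016 for *frzb* and -0.13 for *tnnt3*. Under median centring the difference was -0.039 for *cdc6*, -0.018 for *dbx1*, -0.013 for *frzb*, -0.063 for *hba1*, -0.0047 for *hoxd8*, -0.052 for *pou4f1* and -0.062 for *tnnt3*. With the mean of all probe sets of a gene the difference was 0.12 for *ccna2*, 0.021 for *ccnb2*, -0.20 for *dcaf12*, -0.089 for *fzd10*, -0.31 for *hyal2*, -0.38 for *mark2*, 0.046 for *mcm7*, 0.035 for *mef2a*, 1.34 for *pax3* and -0.16 for *pou4f1*. Leaving out an array in turn gave differences of -0.17 to 0.077 for *astl3a.1*, -0.37 to 0.024 for *bmp4*, -0.24 to 0.027 for *ccna2*, -0.16 to 0.21 for *cdc6*, -0.076 to 0.21 for *dbx1*, -0.0063 to 0.73 for *dll1*, -0.28 to 0.15 for *foxd3*, -0.38 to 0.089 for *foxi1*, -0.13 to 0.39 for *frzb*, -0.25 to 0.014 for *gata4*, -0.029 to 0.031 for *hba1*, -0.18 to 0.053 for *hhex*, -0.10 to 0.043 for *mcm3*, -0.30 to 0.049 for *mcm7*, -0.0024 to 0.23 for *myog*, -0.25 to 0.021 for *pax3*, -0.071 to 0.059 for *pou4f1*, -0.43 to 0.25 for *tnnt3* and -0.25 to 0.038 for *tubb3*. For *pax3* the mean of probe sets takes in the S copy. A dim gene near the ceiling limits the size that can be measured, and 2001 probe sets exceeded it on no EF or PNP array. In simulated data with 200 changed probe sets, all taken from those brighter than the median, 56% of 2-fold and 92% of 4-fold changes were recovered. Recovery was scored without the fold limit, so these shares do not apply to the calls of probe sets or to dim genes.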
